A study of Mus musculus with 6 samples.

Results

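Gamma-delta and innate-like T cells share a small set of transcription factors, receptors and surface markers, and 10 of these genes were examined in thymocyte RNA from Toxf/f and Toxf/fPdcd1Cre mice. They were Cd163l1, Sox13, Sox4, Maf, Zbtb16, Id2, Id3, Etv5, Il23r and Nfil3, picked by symbol from the 22298 genes listed in each file, and all 10 passed the filter on low counts. The choice was made with the genotype difference already known, so the genotype values of these 10 genes are given as a description and carry no test.

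The series holds 6 C57BL/6 libraries, 3 per genotype. In Toxf/f mice both copies of Tox, the gene of a DNA-binding HMG-box factor of T cell development, carry recombination sites. Toxf/fPdcd1Cre mice carry the same alleles together with a Cre recombinase named for Pdcd1, so the control has the modified Tox alleles but no Cre, and no group with Cre and an unmodified Tox gene was analysed here. All mice were untreated. Mice were 3 weeks of age for replicates 1 and 2 of each genotype and 4 weeks for replicate 3. The cells were sorted from thymus and labelled double-negative, that is, lacking CD4 and CD8 on the surface. The protocol names only DN2, an early stage of this population. Whether mice were pooled is not given in the sources used here, so the spread between libraries may be partly technical.

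Toxf/f replicates 1 and 2 held identical values under the same column header and were counted as 1 library. This left 2 Toxf/f against 3 Toxf/fPdcd1Cre libraries, with 14245492 to 16199195 estimated counts each. Tox fell to 14.5% of its Toxf/f level, with 1896 and 1746 counts in Toxf/f and 281, 257 and 201 counts in Toxf/fPdcd1Cre replicates 1 to 3. Pdcd1 had 19 counts in the shared Toxf/f library and 0 in the other 4. In mean FPKM, a level scaled for gene length and sequencing depth, Cd8a ranked 129 and Cd4 226 of all genes. Of the early markers, Kit and Flt3 averaged 3.21 and 3.32 FPKM, Cd44 and Il7r 11 FPKM each and Il2ra 25.9 FPKM. The levels of Cd8a and Cd4 go against a population of DN2 cells alone, and they are also high for cells labelled double-negative. Summed FPKM per library was 3502 to 4249 for 10 markers of double-positive cells, which carry both CD4 and CD8. It was 49 to 83.2 for 10 markers of DN1 and DN2 cells. Markers of thymic epithelium and stroma summed to 1404 to 1741 FPKM and of erythroid cells to 761 to 2335 FPKM. The label refers to surface protein and these are RNA levels. Toxf/fPdcd1Cre replicate 1 had 1 count of the chromosome Y gene Ddx3y against 843 to 1354 in the other 4 libraries.

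Most thymocytes rearrange an alpha-beta T cell receptor, and a minority take the gamma-delta fate under stronger receptor signals. Such signals induce the ERK and EGR pathway and then Id3, which together with Id2 binds E proteins and keeps them off DNA. The HMG-box factors Sox13 and Sox4, the bZIP factor Maf and the ETS factor Etv5 are known for gamma-delta cells that make interleukin-17, which also carry the interleukin-23 receptor. Zbtb16 encodes PLZF, the factor of natural killer T cells and other innate-like T cells. Nfil3 is a bZIP repressor needed for innate lymphoid cells. Cd163l1 encodes a scavenger receptor of the SRCR type found on gamma-delta T cells.

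Promoter sequences of 4 genes are shown because the results below turn on 2 pairs: Cd163l1 and its neighbour 5830411N06Rik, which was also higher in Toxf/fPdcd1Cre libraries, and Id2 and Id3, whose products act alike. Each is the 250 bases before the transcription start in RefSeq (GRCm38.p6), read 5′ to 3′ on the gene's strand. The gene annotation used for positions below starts Id2 and Id3 further upstream, so their windows lie inside the annotated genes. The 5830411N06Rik window overlaps the annotated start of its gene. Capitals mark the E-box CANNTG, the motif that E proteins bind. Cd163l1 is taken from chr7:140218017-140218266 (plus strand), 5830411N06Rik from chr7:140247051-140247300 (plus strand, the first of 3 listed starts), Id2 from chr12:25096093-25096342 (minus strand) and Id3 from chr4:136143572-136143821 (plus strand).
Cd163l1: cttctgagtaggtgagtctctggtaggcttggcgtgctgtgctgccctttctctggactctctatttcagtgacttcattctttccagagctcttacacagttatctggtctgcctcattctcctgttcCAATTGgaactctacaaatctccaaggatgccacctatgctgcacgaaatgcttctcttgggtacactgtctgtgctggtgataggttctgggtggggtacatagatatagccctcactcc
5830411N06Rik: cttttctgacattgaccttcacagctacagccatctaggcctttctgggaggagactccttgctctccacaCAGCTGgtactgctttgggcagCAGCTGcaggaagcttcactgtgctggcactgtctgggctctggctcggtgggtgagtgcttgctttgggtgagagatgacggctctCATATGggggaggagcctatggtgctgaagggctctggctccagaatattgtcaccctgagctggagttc
Id2: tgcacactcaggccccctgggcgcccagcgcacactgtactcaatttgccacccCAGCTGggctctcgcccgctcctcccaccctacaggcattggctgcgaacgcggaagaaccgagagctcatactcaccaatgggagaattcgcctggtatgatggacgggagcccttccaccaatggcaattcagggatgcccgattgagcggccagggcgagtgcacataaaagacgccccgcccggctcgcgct
Id3: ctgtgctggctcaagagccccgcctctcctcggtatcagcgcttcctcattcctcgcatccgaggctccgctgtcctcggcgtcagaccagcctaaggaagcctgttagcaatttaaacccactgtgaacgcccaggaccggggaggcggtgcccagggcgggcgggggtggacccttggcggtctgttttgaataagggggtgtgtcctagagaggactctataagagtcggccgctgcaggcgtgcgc
Cd163l1 and Id2 held 1 E-box each, 5830411N06Rik held 3, and Id3 held 0. RefSeq promoters were matched for 8 of the 10 genes, all but Maf and Zbtb16. An E-box stood in the first listed promoter of 6 of these 8 (Cd163l1, Sox4, Id2, Etv5, Il23r and Nfil3), against 66.2% of 32536 mouse promoters of the same length. The MAF element TGCTGA stood in Il23r alone, against 16.1% of all. The EGR element GCGNGGGCG stood in Nfil3 alone, against 4.74% of all. The SOX or TCF box ACAAAG, the ETS core CCGGAA, the AP-1 element TGANTCA and the D-box TTANNTAA were in none of the 8, against 16.5%, 12.1%, 6.73% and 5.41% of all promoters. Both strands were searched, each motif on its own, and matches of different motifs may overlap. A match describes letters in this window only.

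By length-scaled level the genes fell into 2 tiers. Id3, Sox4 and Id2 averaged 64.2, 51.6 and 39.7 FPKM over the 5 libraries, ranks 1310, 1680 and 2239 of all listed genes. Cd163l1 averaged 8.34 FPKM, Maf 4.95, Etv5 4.18, Sox13 4.02 and Nfil3 2.86 FPKM. Zbtb16 averaged 1.5 FPKM and Il23r 0.762 FPKM. Neighbours in this order overlapped from library to library: Sox4 spanned 43.9 to 56.2 FPKM and Id3 54.4 to 70.8 FPKM, while Maf (4.03 to 7.58), Etv5 (3.51 to 4.75) and Sox13 (2.62 to 6.05) could not be ordered. In Toxf/f libraries Id2 and Sox4 stood side by side at 51.5 and 49.4 FPKM, and in Toxf/fPdcd1Cre libraries Id2 was at 31.8 and Sox4 at 53.1 FPKM.

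The comparison of genotypes asks how RNA levels differ when Tox is targeted. Cd163l1 was about 10-fold higher in Toxf/fPdcd1Cre libraries, Id2 was at 64.1% of its Toxf/f level, and the remaining 8 genes differed by less, except Zbtb16, whose values scattered widely. Of the 10 genes, 1 passed an adjusted p of 0.05 as higher (Cd163l1) and 0 as lower, where 1.64% of all 14121 genes tested passed, 0.135% as higher and 1.51% as lower. The libraries of the 2 genotypes did not overlap for 3 of the 10, Cd163l1 above and Id2 and Etv5 below, where 12.6% of all tested genes lay above and 13.5% below. The median log2 fold change was 0.07 over the 10 genes and 0.03 over all genes tested. Nothing is read from these shares, since this contrast was known when the genes were chosen. The lists of other genes below were also chosen with earlier results of these data known, so their counts are descriptions too. Levels below are CPM, a library-size-scaled count (TMM factors), and log2 fold changes are Toxf/fPdcd1Cre minus Toxf/f from edgeR, with the standard error.

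**Figure D1:**
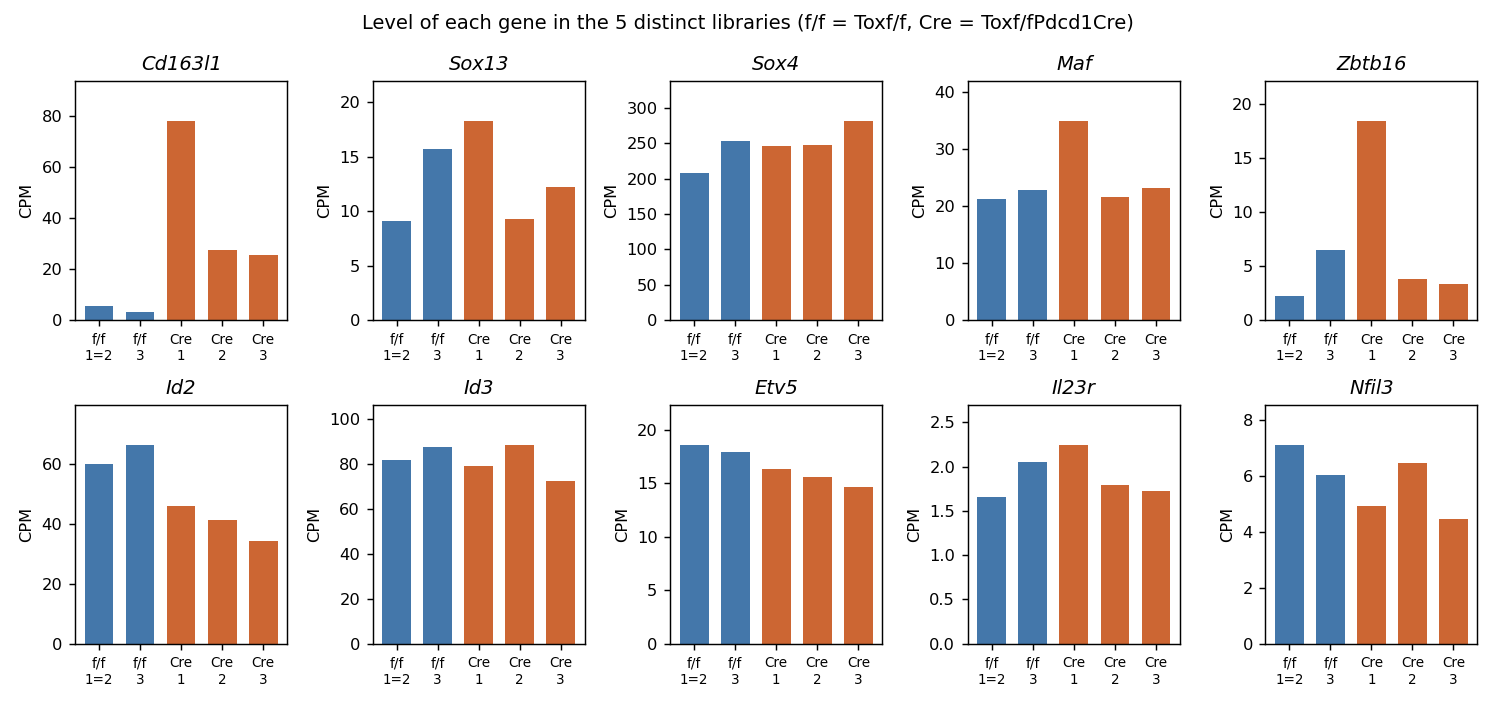
Level of each of the 10 genes in CPM (vertical axis, from 0, own scale per gene) in the 5 distinct libraries, 1 bar per library. Blue bars are Toxf/f (f/f; 1=2 is the library shared by replicates 1 and 2) and orange bars Toxf/fPdcd1Cre (Cre); Cd163l1 is at 3.25 and 5.31 CPM in Toxf/f and at 25.4 to 78.0 CPM in Toxf/fPdcd1Cre libraries, and Zbtb16 is high in replicate 1 of Toxf/fPdcd1Cre only.

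Cd163l1 (ENSMUSG00000025461, chromosome 7 from 140218267 to 140231145 in GRCm38, plus strand) was the member with the clearest separation. Toxf/f libraries had 83 and 54 counts of it, and Toxf/fPdcd1Cre replicates 1, 2 and 3 had 1142, 429 and 369. In CPM these were 5.31 and 3.25 against 78.0, 27.4 and 25.4. All 3 Toxf/fPdcd1Cre libraries lay above both Toxf/f libraries, and replicate 1 lay far above the other libraries of its genotype. The Toxf/f mean was 4.28 ± 1.46 CPM (SD, n = 2) and the Toxf/fPdcd1Cre mean 43.6 ± 29.8 CPM (SD, n = 3), a log2 fold change of 3.35 ± 0.489. The ratio of means was 10.2, and it was 6.16 without Toxf/fPdcd1Cre replicate 1. Without either Toxf/f library in turn the gene no longer passed, at log2 fold changes of 3.74 (without the shared library) and 3.03 (without replicate 3).

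The gene next to it, 5830411N06Rik (ENSMUSG00000054672), encodes a related scavenger receptor also named Scart2 and was not among the 10. It lies on the same strand of chromosome 7 from 140247284 to 140300736, 16.1 kb beyond the end of Cd163l1. Its levels were 3.07 and 9.1 CPM in Toxf/f and 33.3, 25.9 and 19.5 CPM in Toxf/fPdcd1Cre libraries. It rose 4.29-fold, or 2.10 ± 0.374 on the log2 scale (adjusted p = 0.0169, edgeR quasi-likelihood, adjusted by Benjamini-Hochberg over all genes). The adjusted p was 0.13 without the shared Toxf/f library. No 50-base window of the annotated transcripts of Cd163l1 or of 5830411N06Rik occurred in transcripts of another gene, so reads of that length would not be split between them. The other tested genes nearest to Cd163l1, chosen after its value was seen, did not pass: on the near side Olfr524 at 1.17, Mtg1 at 0.35, Paox at 0.11 and Echs1 at 0.10, and on the far side Olfr46 at -0.35, Olfr539 at -0.12, Cyp2e1 at 0.20 and Urah at -1.65 on the log2 scale (adjusted p = 0.182 to 0.967, edgeR).

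Among 14 tested genes for other SRCR and scavenger receptors, 1 was higher, 5830411N06Rik, and 1 was lower. The lower one was Lgals3bp, the gene of a secreted SRCR protein that binds galectins, at -0.81 ± 0.162 on the log2 scale (adjusted p = 0.0305, edgeR). Of the fits that leave out 1 library, Lgals3bp passed only in the one without Toxf/fPdcd1Cre replicate 1, at log2 fold changes of -1.03 to -0.69 over these fits. It passed in 8 of all 18 alternatives to the processing. The lymphocyte receptors Cd5 and Cd6, the list's most abundant other members, stood at -0.02 and 0.10 (adjusted p = 0.984 and 0.906, edgeR). The median of the list was -0.16 against 0.03 over all genes tested.

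Id2 (ENSMUSG00000020644, chromosome 12 from 25093799 to 25097140, minus strand) was at 60.1 and 66.6 CPM in Toxf/f and at 46.1, 41.4 and 34.3 CPM in Toxf/fPdcd1Cre replicates 1, 2 and 3. Every Toxf/fPdcd1Cre library lay below both Toxf/f libraries. The means were 63.3 ± 4.64 CPM (SD, n = 2) and 40.6 ± 5.94 CPM (SD, n = 3). Its log2 fold change, -0.64 ± 0.153, was not called with all 5 libraries. It passed in 7 of 18 alternatives to the processing, among them DESeq2 and limma-voom. These 7 include the fits that counted the identical Toxf/f files separately, which repeat 1 library. Since Id2 was chosen with this contrast known, these passes are no test of it. The fold change stayed between -0.78 and -0.53 in all 18. In bulk RNA, fewer cells of a type and less RNA per cell cannot be told apart. Dendritic and mature single-positive T cells also express Id2. Markers of dendritic cells summed to 1134 and 1308 FPKM in Toxf/f and 574 to 800 FPKM in Toxf/fPdcd1Cre libraries, and 4 of 13 passed as lower (Cd74, H2-Eb1, Ccr7 and Flt3). Most of this sum was Cd74 (753 and 862 FPKM in Toxf/f, mean 466 FPKM in Toxf/fPdcd1Cre) and H2-Eb1 (230 and 274 FPKM, mean 129 FPKM). Xcr1, Clec9a, Itgax and Siglech, on the same list, averaged 2.04, 1.79, 3.22 and 3.97 FPKM. None of them passed, though all 13 genes of the list stood below 0 in log2 fold change. Markers of mature single-positive T cells summed to 264 and 313 FPKM against 162 to 178 FPKM, with 6 of 10 lower, and Ccr7 is counted in both lists. The fall in summed level was not limited to these lists. B and plasma markers summed to 183 and 190 FPKM against 130 to 163 FPKM. Those of macrophages and granulocytes summed to 774 and 961 against 472 to 720 FPKM, and erythroid ones to 1661 and 2335 against 761 to 1601 FPKM. Of these, 1 of 12, 0 of 12 and 0 of 5 tested genes passed as lower. Sums of the other marker lists overlapped between genotypes. The part of these cell types in the level of Id2 was not tested.

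Id3 (ENSMUSG00000007872, chromosome 4 from 136143497 to 136145755, plus strand) had nearly the same level in both genotypes. It was at 81.7 and 87.5 CPM in Toxf/f and at 79.4, 88.8 and 72.6 CPM in Toxf/fPdcd1Cre libraries. The groups overlapped, and the log2 fold change was -0.08 ± 0.135. The log2 fold changes of Id2 and Id3 were not tested against each other.

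The partners of the Id proteins did not pass. Of 16 other genes of the E protein and Id list 0 were higher and 0 lower in edgeR, with a median of 0.02. At an unadjusted p under 0.05 in edgeR there were 5 of the 16. The share of all genes at that threshold is not given here, so nothing is read from this count. DESeq2 called 1 and limma-voom 0, where they called 359 and 297 over all genes. The recombination gene Rag1 and the coreceptor gene Cd4, the list's most abundant members, stood at 0.23 ± 0.164 and -0.03 ± 0.159 on the log2 scale (adjusted p = 0.738 and 0.980, edgeR). The E protein genes Tcf3 and Tcf12, looked up after the list was counted, stood at 0.33 ± 0.138 and 0.32 ± 0.146 (adjusted p = 0.408 and 0.474, edgeR). Tcf3 was at 153 and 169 CPM in Toxf/f and at 181, 205 and 222 CPM in Toxf/fPdcd1Cre libraries. Tcf12 was at 576 CPM in each Toxf/f library and at 630, 788 and 746 CPM in Toxf/fPdcd1Cre libraries. For both, every Toxf/fPdcd1Cre library lay above the Toxf/f libraries, as for 12.6% of all tested genes. Genes of the receptor signal that leads to EGR factors and Id3 were listed with earlier results of these data known. Nothing is read from their shares. Of 13 tested, 5 passed as lower and 0 as higher, against 1.51% and 0.135% of all genes tested. The median of this list was -0.67, against 0.03 over all genes. They were Nr4a1 and Nr4a3, nuclear receptors induced by T cell receptor signals, at -1.18 ± 0.172 and -1.17 ± 0.185 (adjusted p = 0.00536 and 0.00862, edgeR), Relb, an NF-kappa B subunit, at -1.12, Cd69, an activation marker, at -0.93, and Nab2, a corepressor of EGR proteins, at -0.69. Cd5, a receptor whose level follows signal strength, and Egr1, the most abundant others, did not pass, at -0.02 and -0.39 (adjusted p = 0.984 and 0.221). None of the 5 passed without either Toxf/f library in turn (adjusted p = 0.0805 to 0.523). Cd69 was also not called without Toxf/fPdcd1Cre replicate 3 (adjusted p = 0.0815) and Nab2 without replicate 1 or 3 (adjusted p = 0.0534 and 0.187). Summed markers of mature single-positive T cells, a list that also holds Cd69, and of dendritic cells were lower in the same libraries. So were the sums of B and plasma, macrophage and granulocyte, and erythroid markers. The sums are given for Id2, and the part of these cell types in the values here was not tested.

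Sox4 (ENSMUSG00000076431, chromosome 13 from 28948919 to 28953713, minus strand) was at 208 and 254 CPM in Toxf/f and at 247, 248 and 282 CPM in Toxf/fPdcd1Cre libraries. The groups overlapped, with a log2 fold change of 0.17 ± 0.143 that was 0.32 without Toxf/f replicate 3 and 0.03 without the shared library. The gene overlaps the long non-coding gene Gm26735 on the opposite strand, and 54.1% of the 50-base windows of its transcripts also occur there, so without strand the reads of the 2 cannot be told apart.

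Sox13 (ENSMUSG00000070643, chromosome 1 from 133382303 to 133424377, minus strand) varied 2.01-fold between libraries without following genotype. It was at 9.09 and 15.7 CPM in Toxf/f and at 18.3, 9.25 and 12.2 CPM in Toxf/fPdcd1Cre libraries. The log2 fold change of 0.10 ± 0.302 became -0.25 without Toxf/fPdcd1Cre replicate 1 and 0.54 without Toxf/f replicate 3.

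Of 17 tested genes for other SOX, TCF and TOX factors 2 were lower and 0 higher, with a median of -0.17. They were Tox itself, at -2.78 ± 0.161 (adjusted p = 6.72e-06, edgeR), and Lef1, a TCF family factor of thymocytes, which fell from 388 and 376 CPM in Toxf/f to 221, 219 and 267 CPM in Toxf/fPdcd1Cre replicates 1, 2 and 3 (-0.70 ± 0.138, adjusted p = 0.0288). Lef1 did not pass without the shared Toxf/f library, Toxf/f replicate 3 or Toxf/fPdcd1Cre replicate 2 (adjusted p = 0.264, 0.294 and 0.0677). Tcf7 and Ctnnb1, the most abundant others, stood at -0.04 and 0.09 (adjusted p = 0.978 and 0.916).

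Maf (ENSMUSG00000055435, chromosome 8 from 115682942 to 115707794, minus strand) was at 21.2 and 22.8 CPM in Toxf/f and at 35.0, 21.7 and 23.2 CPM in Toxf/fPdcd1Cre replicates 1, 2 and 3. Replicate 1 alone stood above the rest. The log2 fold change of 0.28 ± 0.207 was -0.01 without it. Maf overlaps Gm15655 on the opposite strand, which shares windows with it, and 4.64% of its windows also occur in other genes.

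Nfil3 (ENSMUSG00000056749, chromosome 13 from 52967209 to 52981073, minus strand) was at 7.11 and 6.02 CPM in Toxf/f and at 4.92, 6.45 and 4.47 CPM in Toxf/fPdcd1Cre libraries. The groups overlapped through replicate 2, with a log2 fold change of -0.31 ± 0.275. Of 19 tested genes for other MAF and PAR bZIP factors and their partners 1 was lower and 0 higher, with a median of 0.02. It was Bach2, a bZIP repressor of effector differentiation, at -1.50 ± 0.193 (adjusted p = 0.0029, edgeR), which did not pass without Toxf/f replicate 3 (adjusted p = 0.102). Arntl, the circadian factor BMAL1, and Nfe2l2, the most abundant others, stood at 0.15 and -0.14.

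Etv5 (ENSMUSG00000013089, chromosome 16 from 22381309 to 22439719, minus strand) was at 18.6 and 17.9 CPM in Toxf/f and at 16.3, 15.6 and 14.6 CPM in Toxf/fPdcd1Cre libraries. The groups did not overlap, yet the difference was small, a log2 fold change of -0.24 ± 0.168 with Toxf/fPdcd1Cre at 84.8% of Toxf/f. Its transcripts share 24.5% of their windows with the gene Gm4798. Of 17 other ETS genes and ERK targets 0 passed in either direction in edgeR, and DESeq2 called 0 and limma-voom 0. At an unadjusted p under 0.05 in edgeR there were 2, a count given without the share of all genes and not read further. The median of this list was -0.12, and its most abundant members Ets1 and Ets2 stood at -0.05 and 0.10 (adjusted p = 0.968 and 0.924, edgeR).

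Il23r (ENSMUSG00000049093, chromosome 6 from 67422932 to 67491855, minus strand) had 26 and 34 counts in Toxf/f and 33, 28 and 25 counts in Toxf/fPdcd1Cre libraries. In CPM these were 1.66 and 2.05 against 2.25, 1.79 and 1.72, which overlap. The log2 fold change was 0.05 ± 0.416, so its error spans both directions. Of 21 tested genes of interleukin-23 and interleukin-17 signalling 1 was lower and 0 higher, with a median of -0.16. It was Il6ra, the interleukin-6 receptor chain, at -1.45 ± 0.234 (adjusted p = 0.00967, edgeR). Il6ra did not pass without Toxf/f replicate 3 (adjusted p = 0.276). Il6st, the shared signalling chain of the interleukin-6 family, stood at -0.01. The cytokine genes Il17a, Il17f and Il22 were too low to be tested, each at most 0.478 CPM in any library.

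Zbtb16 (ENSMUSG00000066687, chromosome 9 from 48654297 to 48836222, minus strand) had the widest relative spread within a genotype. Toxf/f libraries had 35 and 107 counts of it, and Toxf/fPdcd1Cre replicates 1, 2 and 3 had 269, 60 and 49. In CPM these were 2.24 and 6.45 against 18.4, 3.83 and 3.37. Replicate 1 stood above every other library, while replicates 2 and 3 lay between the 2 Toxf/f libraries. The means were 4.34 ± 2.97 CPM (SD, n = 2) and 8.53 ± 8.53 CPM (SD, n = 3), and the log2 fold change of 0.97 ± 0.671 turned to -0.32 without Toxf/fPdcd1Cre replicate 1. Of 12 relatives among BTB zinc finger genes 1 was lower and 0 higher, with a median of -0.01. It was Zbtb7b, the CD4 lineage factor ThPOK, at -1.76 ± 0.261 (adjusted p = 0.0059, edgeR), which did not pass without the shared Toxf/f library or Toxf/f replicate 3 (adjusted p = 0.0529 and 0.209). Patz1 and Bcl6, the most abundant others, stood at 0.01 and 0.29. Zbtb7b is also on the list of mature single-positive markers, whose sums are given for Id2, and the part of those cells in its level was not tested.

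**Figure D2:**
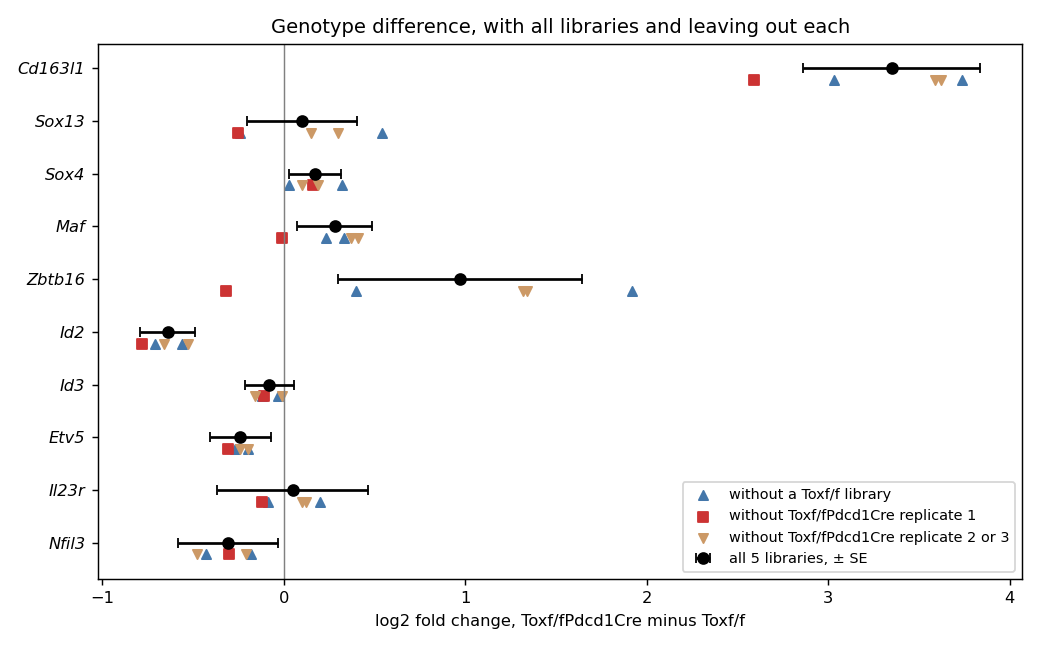
Log2 fold change of Toxf/fPdcd1Cre minus Toxf/f (horizontal axis) for each gene, as black points with the standard error for all 5 libraries and as coloured symbols for fits that leave out 1 library. Without Toxf/fPdcd1Cre replicate 1 (red squares) Zbtb16 moves from 0.97 to -0.32 and Maf from 0.28 to -0.01, while Cd163l1 stays above 2 in every fit.

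Toxf/fPdcd1Cre replicate 1 stood apart from the other libraries of its genotype for some of the genes and not for others. It also differed over all tested genes, on the first principal component, the axis of largest variation (50.7% of variance). Its value there was -8.19, against 35.8 and 37.9 in replicates 2 and 3 and -25.4 and -40.1 in Toxf/f. This library also had only 1 count of Ddx3y. In this library Zbtb16 was 5.1-fold and Cd163l1 2.96-fold above the mean of replicates 2 and 3, Sox13 was 1.71-fold and Maf 1.56-fold above, and Il23r 1.29-fold. Sox4, Id3, Etv5 and Nfil3 were between 0.901 and 1.08 times that mean, and Id2 was 1.22 times. So 4 of the 10 genes were at least 1.5-fold higher in replicate 1, where 13.7% of all tested genes were, and 2 of 10 at least 2-fold, where 7.08% were. It was the highest of the 5 libraries for 5 of the 10 genes (Cd163l1, Sox13, Maf, Zbtb16 and Il23r), against 21.5% of all tested genes. Replicate 1 is a single library, so these values have no replicate check.

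**Figure D3:**
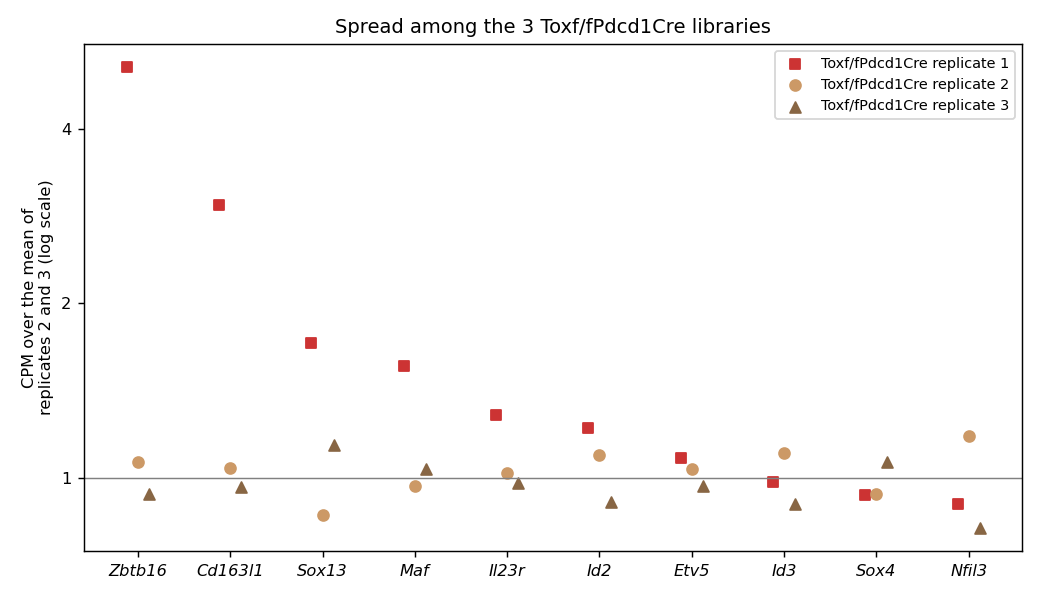
CPM in each Toxf/fPdcd1Cre library divided by the mean of replicates 2 and 3 (vertical axis, log scale), for the 10 genes ordered by the value of replicate 1. Red squares (replicate 1) run from 5.1 for Zbtb16 to 0.901 for Nfil3, while replicates 2 and 3 lie on either side of 1 by construction.

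Other innate-like and gamma-delta genes in replicate 1 are given for comparison. Of 24 tested innate-like T cell genes 6 were at least 2-fold above the mean of replicates 2 and 3, with a median ratio of 1.25 over the list. Of 20 tested gamma-delta genes 3 were, with a median of 1.38, against a median of 1 over all genes. Ccr2, a chemokine receptor of gamma-delta cells and monocytes, was at 62.7 CPM in replicate 1 and at 9.25 and 14.3 CPM in replicates 2 and 3. Icos, a costimulatory receptor, was at 119, 37.9 and 46.2 CPM. Both were chosen after their values were seen. Markers of innate lymphoid and natural killer cells had a median ratio of 1.7, and 4 of the 13 tested were at least 2-fold higher. Their summed level was 323 and 333 FPKM in Toxf/f and 410, 337 and 288 FPKM in Toxf/fPdcd1Cre replicates 1, 2 and 3. This sum came mostly from a few abundant genes, not all particular to these cells, so it does not measure how many were present. Tyrobp and Fcer1g averaged 68 and 31.5 FPKM, while Klrd1, Prf1, Tbx21 and Eomes averaged 2.07, 1.57, 1.3 and 0.56 FPKM. Gzma, a granzyme gene of this list, averaged 86.5 FPKM. Between genotypes the median log2 fold change of this list was -0.22, with 9 of the 13 tested genes below 0 and 4 above. Klrb1c, which encodes the natural killer marker NK1.1, was the 1 gene that passed, at 1.80 ± 0.374 on the log2 scale (adjusted p = 0.0348, edgeR). It was at 3.14 and 4.4 CPM in Toxf/f and at 20.5, 10.6 and 8.46 CPM in Toxf/fPdcd1Cre replicates 1, 2 and 3, highest in replicate 1. Klrb1c did not pass without the shared library or the other Toxf/f library (adjusted p = 0.381 and 0.307, edgeR) or in limma-voom (adjusted p = 0.0653). Ncr1, another natural killer gene, was at most 0.24 FPKM in any library. Their part in the values of replicate 1 was not tested.

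Across all 5 libraries 3 genes varied most: Cd163l1, Zbtb16 and Sox13, with standard deviations of log2 CPM of 1.85, 1.14 and 0.445. The genes whose centred log2 CPM lay closest to each were found among 13712 tested genes, as a description over 5 libraries. For Cd163l1 they were Pcsk1, Pfn4 and Podnl1, with a root mean square difference of 0.45, 0.57 and 0.68. For Zbtb16 they were Fut7, Il18r1 and Tns4, at 0.30, 0.34 and 0.35. Il18r1, a chain of the interleukin-18 receptor, was at 10.5 and 20.2 CPM in Toxf/f and at 49.2, 16.7 and 17.1 CPM in Toxf/fPdcd1Cre libraries. For Sox13 they were Dyrk3, Prex2 and Clec1a, at 0.06, 0.08 and 0.09.

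The gamma-delta list, also chosen with earlier results known, describes how receptor and identity genes outside the 10 differed by genotype. Of its 20 tested members 2 passed as higher and 3 as lower, with a median of 0.07. Trdc, the constant gene of the delta chain, rose 1.82-fold, from 160 and 126 CPM in Toxf/f to 325, 221 and 232 CPM in Toxf/fPdcd1Cre replicates 1, 2 and 3 (0.86 ± 0.187 on the log2 scale, adjusted p = 0.0437, edgeR). The second was 5830411N06Rik. Ccr6, a chemokine receptor of gamma-delta cells that make interleukin-17 and of B cells, fell 8.32-fold, from 41 and 113 counts to 11, 5 and 9 (-3.06 ± 0.529, adjusted p = 0.0145), and it did not pass without Toxf/f replicate 3 (adjusted p = 0.448). The adhesion receptor Cd44 fell by 0.67 and the interleukin-7 receptor gene Il7r fell by 0.75 on the log2 scale (adjusted p = 0.0437 and 0.0496, edgeR). Of the fits that leave out 1 library both passed only in the one without Toxf/fPdcd1Cre replicate 1. Over all alternatives to the processing Cd44 passed in 8 of 18 and Il7r in 7 of 18. Both are also on the list of DN1 and DN2 markers, and Il7r on that of mature single-positive T cells. Trdc did not pass without the shared Toxf/f library, Toxf/f replicate 3 or Toxf/fPdcd1Cre replicate 3 (adjusted p = 0.192, 0.588 and 0.0666). Ptprc and Tcf12, the most abundant others, stood at -0.03 and 0.32. Without the shared Toxf/f library 0 of the list passed as higher and 1 as lower, and 1 and 0 did without the other Toxf/f library. Leaving out Toxf/fPdcd1Cre replicate 1, 2 or 3 gave 2, 6 and 1 as higher and 4, 1 and 1 as lower.

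Constant genes of the gamma chain, looked up after the list was counted, were Trgc1, Trgc2 and Trgc4. Trgc4 was at 8.64 and 9.04 CPM in Toxf/f and at 40.4, 15.0 and 17.1 CPM in Toxf/fPdcd1Cre libraries, which is 1.45 ± 0.371 on the log2 scale (adjusted p = 0.0943, edgeR). Trgc2 stood at 0.72 ± 0.179 and Trgc1 at 0.58 ± 0.273 (adjusted p = 0.085 and 0.502). None of the 3 passed. All 3 were highest in Toxf/fPdcd1Cre replicate 1, and such constant genes resemble one another, so counting may split their reads. Of 24 tested innate-like T cell genes 0 passed in either direction, with a median of -0.06, and the most abundant, Sh2d1a (the SAP adaptor) and Slamf6, stood at 0.24 and 0.26 (adjusted p = 0.704 and 0.555, edgeR). At an unadjusted p under 0.05 in edgeR there were 8 of these 24, a count given without the share of all genes and not read further. DESeq2 called 1 and limma-voom 0, where they called 359 and 297 over all genes.

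**Figure D4:**
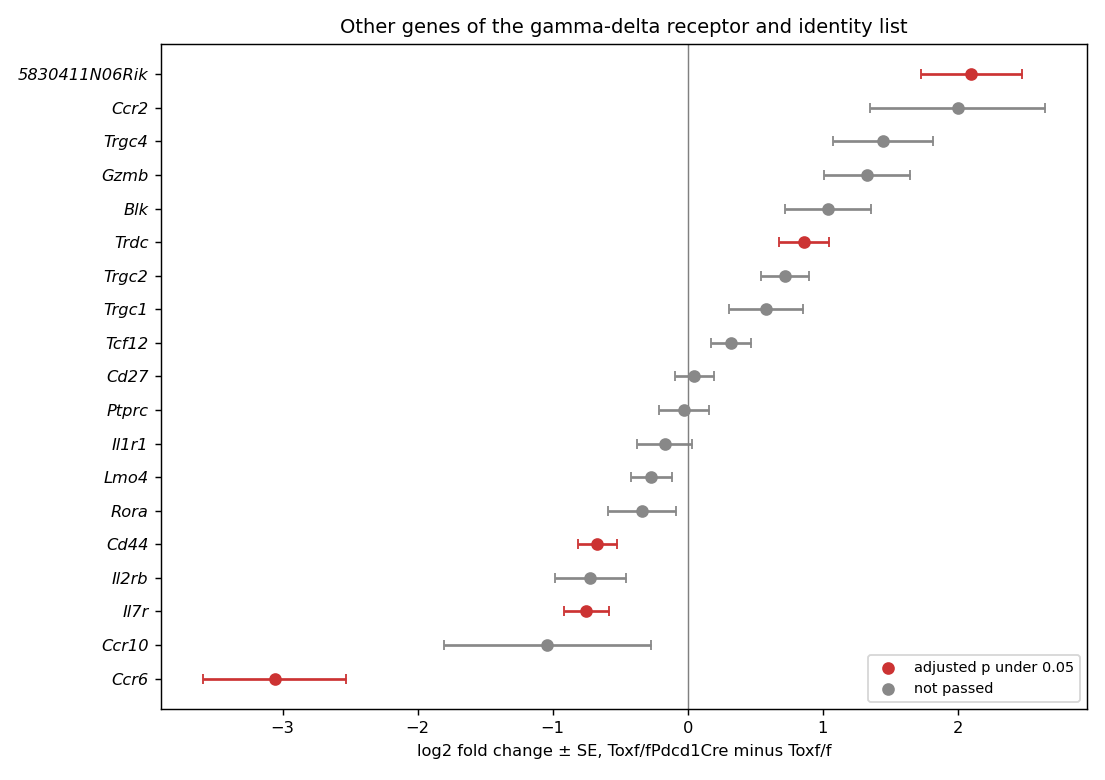
Log2 fold change of Toxf/fPdcd1Cre minus Toxf/f with its standard error (horizontal axis) for 19 of the 20 tested genes of the gamma-delta receptor and identity list. Red points passed an adjusted p of 0.05, from Ccr6 at -3.06 to 5830411N06Rik at 2.10, and grey points did not.

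Age was a contrast that the choice of genes had not used, and 4-week libraries were compared with 3-week libraries in a model with genotype. Of the 10 genes 0 passed in edgeR (adjusted p = 0.9997 for each) and 0 in DESeq2, where 0.00708% of all tested genes did, 1 of 14121. At an unadjusted threshold of 0.05 there was 1 of the 10, Cd163l1, and 300 of all tested genes (2.12%). Cd163l1 stood at -0.94 ± 0.386 for 4 weeks minus 3 weeks on the log2 scale. Cd163l1 was lower at 4 weeks in both genotypes, at 3.25 against 5.31 CPM in Toxf/f and at 25.4 against 78.0 and 27.4 CPM in Toxf/fPdcd1Cre libraries. Sox4 stood at 0.23 ± 0.139 and Nfil3 at -0.30 ± 0.294. The other 7 lay between -0.29 (Zbtb16) and 0.24 (Sox13). Each genotype had 1 library at 4 weeks, and age and replicate number 3 cannot be told apart.

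Within each age the genotype difference in log2 CPM kept its direction for Cd163l1, Id2, Etv5, Nfil3, Sox4 and Maf. For Cd163l1 it was 3.88 and 2.37 at 3 weeks (replicates 1 and 2 minus the shared Toxf/f library) and 2.96 at 4 weeks. For Id2 it was -0.38 and -0.54 at 3 weeks and -0.96 at 4 weeks. Sox4 gave 0.25, 0.26 and 0.15, and Nfil3 gave -0.53, -0.14 and -0.43. Zbtb16 gave 3.04 and 0.77 at 3 weeks and -0.94 at 4 weeks. The interaction of genotype and age, tested after seeing the data, passed for 0 of the 10 genes (adjusted p = 0.9999 for each, edgeR), where 0.0283% of all tested genes passed. At an unadjusted threshold of 0.05 there was 1 of the 10, Zbtb16, and 378 of all tested genes.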

How the data were processed

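RNA of sorted mouse thymocytes was sequenced in 6 samples, 3 labelled Toxf/f and 3 labelled Toxf/fPdcd1Cre. For each sample the authors deposited a table of 22298 genes that gives FPKM and an estimated count. The submitters' processing notes name fastp 0.18.0, HISAT2 and StringTie 1.3.1; build, annotation and strand setting: not given in the sources used here. Between 8.81 and 9.84% of the deposited counts were not whole, and they were rounded to whole numbers before testing. Gene coordinates come from the GRCm38 annotation matched by gene ID.

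Groups come from the labels. Genes were kept by edgeR's filterByExpr (minimum count 10), scaled by TMM and tested with the quasi-likelihood test of edgeR 4.0.16 (R 4.3.3), with Benjamini-Hochberg adjustment over 14121 genes at 0.05. Genotype was tested without a covariate, and age in a model with genotype. DESeq2 1.42.0 and limma 3.58.1 (voom, and log2 of the authors' FPKM plus 1) were alternatives, beside other scalings, filters, a replicate block and leaving out each library. The interaction of genotype and age, and a block by the sample labels, were added after seeing the data. On simulated data the genotype test recovered 73% of 2-fold and 95% of 4-fold changes with 6 and 9 false calls (200 of 14121 genes changed), and the age test 67% and 91% with 8 false calls each.

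The 10 genes and the gene lists were chosen with earlier results of these data known. Named list genes are those past the threshold (up to 6 by smallest p) and the 2 most abundant others by mean FPKM; for marker lists, the 2 most abundant and up to 3 past the threshold. A gene counted in some of the lists and 1 motif searched are not reported here.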

Additional observations from a re-analysis of the deposited data

Results flagged for a closer look

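For 3 of the 10 genes the genotype difference had opposite signs at 3 and 4 weeks in every pair of libraries, a pattern that 24.1% of all tested genes showed. The interaction of genotype and age, a test added after seeing the data, gave -3.24 ± 1.02 for Zbtb16 on the log2 scale (edgeR's quasi-likelihood test, unadjusted p = 0.00569). It gave -0.96 ± 0.577 for Sox13 (unadjusted p = 0.115, edgeR) and -0.53 ± 1.15 for Il23r (unadjusted p = 0.653, edgeR). None passed after Benjamini-Hochberg adjustment (adjusted p = 0.9999 for each, edgeR), where 0.0283% of all tested genes did. Each genotype had 1 library at 4 weeks. At 3 weeks Zbtb16 was at 18.4 and 3.83 CPM in Toxf/fPdcd1Cre replicates 1 and 2 and at 2.24 CPM in Toxf/f, and at 4 weeks it was at 3.37 against 6.45 CPM.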

How the results depend on the processing

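The number of genes called between genotypes, 232, moved with the processing: 417 without a filter on low counts, 67 with at least 10 CPM in 3 libraries, 359 with DESeq2, 113 and 101 with limma on log2(FPKM + 1) and log2(FPKM + 0.1), 44 with limma on FPKM without a filter, 125 with age as a covariate and 380 with the identical files counted separately. Leaving out 1 library gave 31 to 606, with 49 without the shared Toxf/f library, 31 without the other Toxf/f library, and 606 and 114 when Toxf/fPdcd1Cre replicate 1 or 3 was dropped. Other size factors and limma-voom gave 168 to 297. Deviations from the group mean correlated between genotypes at 0.105 and -0.157 for replicate numbers 2 and 3. With 2 Toxf/f libraries their deviations mirror each other, so this cannot decide whether replicate numbers pair the samples. With the replicate block the count was 868, and with a block by the sample labels and the files counted separately, chosen after seeing the data, 442. For age the count of 1 became 2 with DESeq2 and 1 to 15 when 1 library was left out (5 without the shared Toxf/f library).

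Cd163l1 stayed above 0 in 18 of 18 alternatives (2.40 to 3.74) and Id2 below 0 in 18 of 18 (-0.78 to -0.53). Sox13 was below 0 in 3 of 18 (lowest -0.25), Zbtb16 in 2 of 15 (lowest -0.32), Maf in 1 of 18 (-0.01) and Il23r in 4 of 15 (lowest -0.12). Sox4 stayed above 0, and Id3, Etv5 and Nfil3 below 0, in every alternative in which they were tested. With 2 distinct Toxf/f libraries, a fit without 1 of them assumes that the lone library varies like the other group. Depth limits Il23r most, with 25 to 34 counts per library.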
